A study of Rattus norvegicus with 8 samples.

Results

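The rat miR-23, miR-24 and miR-27 microRNAs (miRNAs) were followed in the renal cortex of DOCA-salt rats, nephrectomised rats and sham-operated rats. Members were all array features for rat miR-23a, miR-23b, miR-24, miR-27a and miR-27b, of either hairpin arm and including the arms numbered 24-1 and 24-2. This rule gave 11 of the 758 rat miRNAs on the array, measured by 30 of its 1806 probes and 176 of its 12128 miRNA spots. The software called 5 of them detected on all 8 arrays, namely miR-23a-3p, miR-27a-3p, miR-24-3p, miR-23b-3p and miR-27b-3p, and these entered the tests. The 6 opposite arms did not.

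The study set 4 groups of male rats side by side, with 2 one-colour Agilent arrays in each. DOCA-EVs rats had undergone nephrectomy and ate chow with 1.5% sodium. They received deoxycorticosterone acetate, a mineralocorticoid that stands in for excess aldosterone, under the skin at 8 mg/kg 2 times a week, and from week 2 a weekly intravenous injection of extracellular vesicles of adipose mesenchymal cells. DOCA rats had the same surgery, diet and hormone, with vehicle in place of the vesicles. UNX rats had undergone nephrectomy, ate chow with 0.50% sodium and were injected with oil vehicle, while SHAM rats kept both kidneys after mock surgery and ate the chow of UNX rats. The DOCA-EVs, DOCA and UNX groups thus share the nephrectomy, and cortex was taken 9 weeks after it per the treatment protocol, although the sample descriptions give 8 weeks. Strain and age are not given in the sources used here. The labels do not say that the 2 arrays of a group are separate rats, so the p-values measure the spread between arrays, which may be technical.

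The 3 miRNAs are made from paralogous clusters in which each hairpin sits beside the next and is transcribed with it. In RefSeq's GRCr8 assembly, Mir23a, Mir27a and Mir24-2 lie within 389 bases at chr19:40859455-40859843 on the minus strand, and no other gene of the table overlaps them. Mir23b, Mir27b and Mir24-1 lie within 814 bases at chr17:1818669-1819482 on the minus strand, where the genes Aopep, Fancc and Mir3074 overlap them. In mouse and human endothelium, miR-23 and miR-27 repress Sprouty2 and Sema6A, which restrain vessel sprouting. miR-23b represses Smad proteins of the TGF-beta pathway in mouse cells, miR-27 represses the lipid regulator PPAR-gamma, and miR-24 represses the genes of aldosterone and cortisol synthesis in human adrenal cells. In mouse collecting duct cells, aldosterone raises the miR-23, miR-24 and miR-27 cluster, which alters sodium transport there.

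Mature sequences matched by name in RefSeq (GRCr8) for 10 of the 11 members. The 5 measured members are printed below because they form 3 seed groups, and the 2 arms of miR-24 that follow are shown because they alone tell its 2 loci apart. Capitals mark the seed, bases 2 to 8 from the 5′ end, which pairs with target messages.
miR-23a-3p: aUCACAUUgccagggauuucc
miR-23b-3p: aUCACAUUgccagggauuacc
miR-27a-3p: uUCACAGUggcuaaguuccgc
miR-27b-3p: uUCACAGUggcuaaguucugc
miR-24-3p: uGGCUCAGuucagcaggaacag
miR-24-1-5p: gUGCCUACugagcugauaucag
miR-24-2-5p: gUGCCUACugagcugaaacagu
miR-23a-3p and miR-23b-3p share a seed and differ at 1 base, U19A, counted from the 5′ end with the base of miR-23a-3p first. miR-27a-3p and miR-27b-3p share another seed and differ at 1 base, C19U, with the base of miR-27a-3p first. No other rat miRNA in the RefSeq table has either seed. Probes for such paralogues may bind both, and how far they do so was not tested, so values of the a and b forms are not independent measurements of the 2 loci. miR-24-3p is identical from Mir24-1 and Mir24-2, so its value is a sum over both clusters. miR-24-1-5p and miR-24-2-5p differ at 5 bases.

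Levels are log2 normalized signals, in which each array was divided by the 75th percentile of its probes above background on all arrays. They compare arrays for 1 miRNA, and no level is set against that of another miRNA. The software detected 208 to 264 miRNAs per array, and 242 entered the tests. Replicate 2 of DOCA-EVs and of DOCA gave the hybridisation control dmr_3 signals of 1136 and 1005, whereas the other 6 arrays gave 2200 to 2415. Those 2 arrays are called weakly hybridised below, a name that rests on this control alone. Their counts of detected miRNAs, 208 for DOCA and 225 for DOCA-EVs, were also the lowest of the 8 arrays. The 75th percentile used for scaling separated the pair. Its DOCA member had the lowest value of all arrays (282), whereas its DOCA-EVs member (451) exceeded both SHAM arrays (421 and 395). The group also equals the column of the single slide, so group and column cannot be told apart, and the replicate number equals its row. Kidney tubule miRNAs were present on every array (7 of 7 markers detected on all 8), whereas 5 of 7 markers of liver, striated muscle and brain were detected on none. The remaining markers were called detected on some arrays, miR-133b-3p on 5 and miR-9a-5p on 2, and were above background on none.

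Among members of the miR-23a cluster, miR-23a-3p had levels of 10.98 and 11.18 on the DOCA-EVs arrays, 10.82 and 10.94 on the DOCA arrays, 10.95 and 11.01 on the UNX arrays, and 10.95 and 10.97 on the SHAM arrays. Both DOCA arrays lay lowest and DOCA-EVs replicate 2 highest. miR-27a-3p had levels of 9.73 and 10.19 on the DOCA-EVs arrays, 9.79 and 10.12 on the DOCA arrays, 9.79 and 9.76 on the UNX arrays, and 9.87 and 9.88 on the SHAM arrays. Its 2 highest values came from the weakly hybridised arrays, and the other DOCA-EVs and DOCA arrays lay among or below the UNX and SHAM arrays. miR-24-3p, which both clusters encode, had levels of 10.57 and 10.97 on the DOCA-EVs arrays, 10.68 and 10.78 on the DOCA arrays, 10.56 and 10.66 on the UNX arrays, and 10.66 and 10.67 on the SHAM arrays. Again the weakly hybridised arrays gave the 2 highest values.

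Among members of the miR-23b cluster, miR-23b-3p had levels of 11.22 and 11.37 on the DOCA-EVs arrays, 11.07 and 11.21 on the DOCA arrays, 11.13 and 11.24 on the UNX arrays, and 11.14 and 11.16 on the SHAM arrays. The groups overlapped except that both DOCA-EVs arrays lay above both DOCA and both SHAM arrays. miR-27b-3p had levels of 9.92 and 9.97 on the DOCA-EVs arrays, 9.87 and 9.93 on the DOCA arrays, 10.12 and 9.99 on the UNX arrays, and 10.06 and 10.07 on the SHAM arrays. All 4 arrays of the DOCA-salt groups (DOCA-EVs and DOCA) lay below all 4 arrays on standard diet (UNX and SHAM), by a gap of 0.022 log2 at its narrowest. These sides did not overlap, in either direction, for 14.5% of all tested miRNAs. The replicates of a group differed by 0.0063 to 0.023 log2 over the 5 members in SHAM and by 0.051 to 0.46 in DOCA-EVs, where miR-27a-3p had the widest spread.

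**Figure D1:**
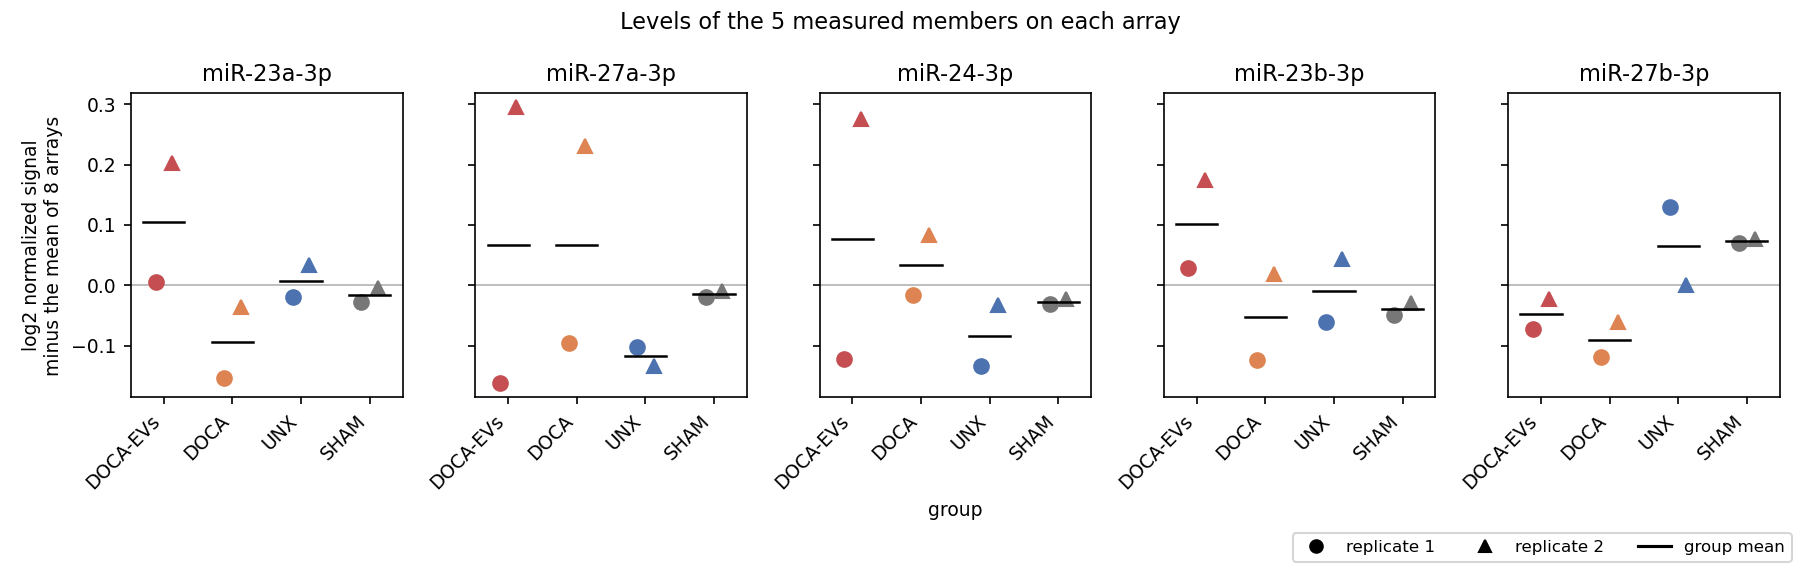
Levels of the 5 measured members on each array, as log2 normalized signal minus the mean of the 8 arrays for that miRNA; circles are replicate 1, triangles replicate 2 and lines group means, with groups from DOCA-EVs to SHAM along the horizontal axis. miR-27b-3p lies lower on all 4 DOCA-EVs and DOCA arrays than on the UNX and SHAM arrays, and miR-27a-3p and miR-24-3p are highest on DOCA-EVs replicate 2 and DOCA replicate 2. The same 4 arrays do not overlap the others, in either direction, for 14.5% of all tested miRNAs.

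The question of DOCA against UNX is what mineralocorticoid and high sodium do after nephrectomy. DOCA rats also received the vehicle of the vesicles, and the groups lie in different slide columns, so these cannot be told apart from it. No member passed the threshold, an adjusted p under 0.05 with limma and Benjamini-Hochberg adjustment over 242 miRNAs, where 1.65% of all tested miRNAs passed. None of the 5 had an unadjusted limma p under 0.05, beside 23.1% of all tested miRNAs. miR-27b-3p averaged 9.90 ± 0.04 in DOCA and 10.06 ± 0.09 in UNX (SD, n = 2 each), a log2 fold change of −0.15 ± 0.12 (SE, limma adjusted p = 0.55). miR-27a-3p, its seed partner, averaged 9.96 ± 0.23 in DOCA and 9.77 ± 0.02 in UNX, a log2 fold change of 0.18 ± 0.19 (limma adjusted p = 0.70). That value was 0.0057 in slide row 1 and 0.36 in row 2, which holds the weakly hybridised DOCA array. miR-24-3p stood at 0.12 ± 0.16, miR-23a-3p at −0.10 ± 0.13 and miR-23b-3p at −0.044 ± 0.13. Under the main scaling, the 95% confidence intervals of the 5 members ran from 0.736-fold to 1.58-fold. The values depended on that scaling. With the median of probes in its place, miR-27b-3p stood at −0.41 (limma adjusted p = 0.082), and with no scaling at −0.74. The median of all tested miRNAs was −0.18 and −0.50 in those settings. The 2 arrays of DOCA did not overlap the 2 of UNX for 4 of the 5 members, and the same held for 52.1% of all tested miRNAs. All 5 members had the same sign in both slide rows, miR-27a-3p with only 0.0057 in row 1. The share of all tested miRNAs with the same sign in both rows was not counted. The members' median was −0.044, beside 0.076 for all tested miRNAs. In bulk cortex, fewer cells of a type and less miRNA per cell cannot be told apart.

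DOCA-EVs against DOCA asks what the vesicles change in DOCA-salt rats. No member passed with limma, where 0% of all tested miRNAs passed. An unadjusted p under 0.05 was found for 0 of the 5 members and for 10.3% of all tested miRNAs. miR-23a-3p averaged 11.08 ± 0.14 in DOCA-EVs and 10.88 ± 0.08 in DOCA (SD, n = 2 each), a log2 fold change of 0.20 ± 0.13 with a 95% confidence interval from 0.923-fold to 1.43-fold (limma adjusted p = 0.79). It was 0.16 in slide row 1 and 0.24 in row 2. miR-23b-3p, which differs from it at 1 base, averaged 11.29 ± 0.10 in DOCA-EVs and 11.14 ± 0.10 in DOCA, a log2 fold change of 0.15 ± 0.13 (limma adjusted p = 0.87), with 0.15 and 0.16 in the 2 rows. Both DOCA-EVs arrays lay above both DOCA arrays for these 2 members, while the other 3 overlapped, and 24.4% of all tested miRNAs did not overlap. miR-24-3p stood at 0.043 ± 0.16, miR-27b-3p at 0.043 ± 0.12 and miR-27a-3p at −0.00085 ± 0.19. The sign was the same in both rows for 3 of the 5 members, a share not counted over all tested miRNAs. The members' median was 0.043, beside 0.0048 for all tested miRNAs.

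UNX against SHAM asks what nephrectomy does on standard sodium. UNX rats were also injected with oil, no injection is stated above for SHAM rats, and the groups lie in different slide columns. Oil and column cannot be told apart from nephrectomy here. No member passed with limma, and 0% of all tested miRNAs did. The unadjusted p was under 0.05 for 0 of the 5 members and 6.61% of all tested miRNAs. miR-27a-3p averaged 9.77 ± 0.02 in UNX and 9.88 ± 0.01 in SHAM (SD, n = 2 each), a log2 fold change of −0.10 ± 0.19 (limma adjusted p = 0.82). The other 4 members lay between −0.057 (miR-24-3p) and 0.031 (miR-23b-3p), all with adjusted p of 0.85 or more. The groups did not overlap for 2 of the 5 members, miR-24-3p and miR-27a-3p, and for 72.7% of all tested miRNAs. The members' median was −0.0086 beside −0.12 for all tested miRNAs. That median of all miRNAs was 0.19 when the percentile was taken over all probes, and relative to it miR-23a-3p and miR-27b-3p were positive in all 6 scalings while the other 3 members were negative in 2 of the 6.

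DOCA-EVs against UNX sets vesicle-treated DOCA-salt rats against nephrectomy alone. No member passed with limma, beside 2.48% of all tested miRNAs. At an unadjusted p under 0.05 the shares were 0 of the 5 members and 12.8% of all tested miRNAs. miR-27a-3p stood at 0.18 ± 0.19, miR-24-3p at 0.16 ± 0.16, miR-23b-3p at 0.11 ± 0.13, miR-23a-3p at 0.097 ± 0.13 and miR-27b-3p at −0.11 ± 0.12, all with limma adjusted p of 0.82 or more. Only miR-27b-3p did not overlap between the groups, 1 of the 5 members beside 36.8% of all tested miRNAs. This comparison shares the UNX arrays with DOCA against UNX and the DOCA-EVs arrays with DOCA-EVs against DOCA, so the 3 sets of values are not independent. Without both weakly hybridised arrays the 4 positive values were all negative, at −0.13 for miR-27a-3p, −0.12 for miR-24-3p, −0.045 for miR-23b-3p and −0.084 for miR-23a-3p.

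The 4 DOCA-salt arrays against the 4 standard-diet arrays gave the narrowest intervals. This comparison mixes diet and hormone with surgery and vesicles. All DOCA-salt rats had undergone nephrectomy and SHAM rats had not, and only DOCA-EVs rats received vesicles. No member passed with limma, while 6.61% of all tested miRNAs passed. With an unadjusted p under 0.05 there were 0 of the 5 members, beside 24% of all tested miRNAs. miR-27b-3p averaged 9.92 ± 0.04 on the DOCA-salt arrays and 10.06 ± 0.05 on the standard-diet arrays (SD, n = 4 each), a log2 fold change of −0.14 ± 0.08 with a 95% confidence interval from 0.789-fold to 1.05-fold (limma adjusted p = 0.40). It was lower on 4 of 4 DOCA-salt arrays, at −0.20 in slide row 1 and −0.080 in row 2, and −0.19 with the weakly hybridised pair left out. The value was negative in all 18 alternative settings, from −0.33 to −0.099, with limma adjusted p from 0.051 to 0.88. Relative to the median of all miRNAs it lay between −0.14 and −0.069 in all 6 scalings. It was the 1 member of 5 whose groups did not overlap, beside 14.5% of all tested miRNAs.

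miR-27a-3p averaged 9.96 ± 0.23 on the DOCA-salt arrays and 9.82 ± 0.06 on the standard-diet arrays, a log2 fold change of 0.13 ± 0.14 (limma adjusted p = 0.69) that was −0.068 in slide row 1 and 0.33 in row 2. Without both weakly hybridised arrays it was −0.088. miR-24-3p averaged 10.75 ± 0.17 on the DOCA-salt arrays and 10.64 ± 0.05 on the standard-diet arrays, a log2 fold change of 0.11 ± 0.12 (limma adjusted p = 0.69). It was −0.038 with the weakly hybridised pair left out. miR-23b-3p stood at 0.048 ± 0.09 and miR-23a-3p at 0.0094 ± 0.09. The intervals of these 4 members ran from 0.863-fold to 1.38-fold. Marker miRNAs of other cell types were summed on the same arrays. The summed level of 7 leukocyte miRNAs was 9.55 to 9.97 on the DOCA-salt arrays and 9.30 to 9.37 on the standard-diet arrays, with 2 of 6 tested markers past the threshold, both higher, and miR-142-5p detected on no array. The summed level of 7 kidney tubule miRNAs was 12.79 to 13.12 on the DOCA-salt arrays and 13.05 to 13.27 on the standard-diet arrays, with 2 of 7 past the threshold, both lower. The leukocyte sums did not overlap between the sides and the tubule sums did, since DOCA-EVs replicate 2 lay above both SHAM arrays. Their part in the members' values was not tested.

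**Figure D2:**
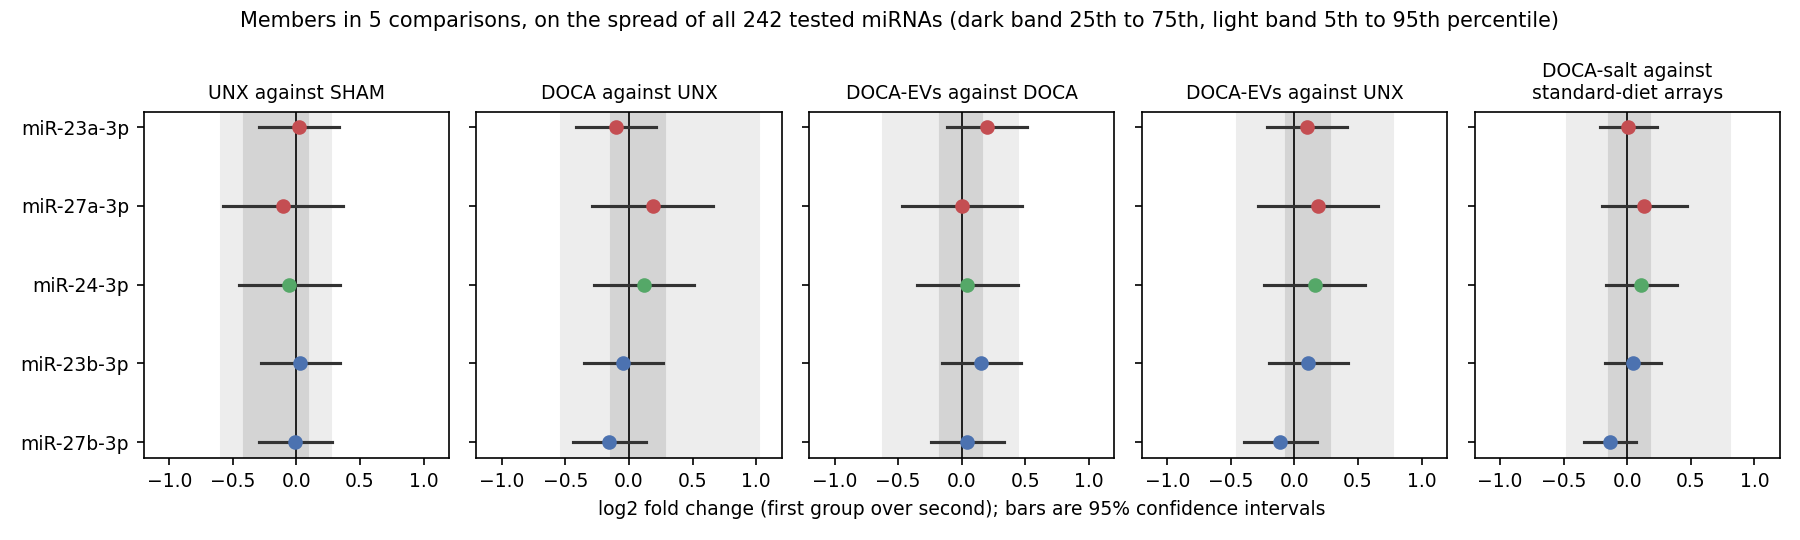
Log2 fold change of each measured member in the 5 comparisons, first group over second, with bars for the 95% confidence interval; the dark band holds the 25th to 75th percentile of the 242 tested miRNAs and the light band the 5th to 95th percentile. Every interval of the 5 members crosses 0, and the narrowest are those of the 4 DOCA-salt against the 4 standard-diet arrays.

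Whether paralogues or cluster mates moved by different amounts was read within each array, where a scaling factor cancels. The offset between 2 probes' levels has no meaning by itself, and only its change between groups was tested. The difference miR-27b-3p minus miR-27a-3p was 0.19 and −0.21 on the DOCA-EVs arrays, 0.081 and −0.19 on the DOCA arrays, 0.34 and 0.24 on the UNX arrays, and 0.19 and 0.19 on the SHAM arrays. It lay below every standard-diet array on 3 of the 4 DOCA-salt arrays. Its mean was −0.032 ± 0.20 on the DOCA-salt arrays and 0.24 ± 0.07 on the standard-diet arrays (SD, n = 4 each), a change of −0.27 log2 that did not pass (exact two-sided permutation p = 0.057, adjusted p = 0.11 over 4 differences). The change was −0.13 in slide row 1 and −0.41 in row 2, and −0.10 without both weakly hybridised arrays. The 4 pairings of single probes gave −0.32 to −0.25.

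The difference miR-27b-3p minus miR-23b-3p, both of the miR-23b cluster, was −1.30 and −1.39 on the DOCA-EVs arrays, −1.19 and −1.28 on the DOCA arrays, −1.01 and −1.24 on the UNX arrays, and −1.08 and −1.09 on the SHAM arrays. DOCA-salt arrays lay lower except that DOCA replicate 1 lay above UNX replicate 2. The mean was −1.29 ± 0.08 on the DOCA-salt arrays and −1.10 ± 0.10 on the standard-diet arrays, a change of −0.19 log2 that did not pass (exact two-sided permutation p = 0.057, adjusted p = 0.11). It was −0.20 and −0.17 in the 2 slide rows, and −0.14 without both weakly hybridised arrays. The change in miR-27a-3p minus miR-23a-3p, the matching pair of the miR-23a cluster, was 0.12 log2 (exact two-sided permutation p = 0.29, adjusted p = 0.29). It was 0.0062 with the weakly hybridised pair left out. The change in miR-23b-3p minus miR-23a-3p was 0.039 log2 (exact two-sided permutation p = 0.11, adjusted p = 0.15), with all 8 arrays between 0.18 and 0.27. The smallest p that 4 arrays against 4 allow is 0.029, and a single difference at that value would have an adjusted p of 0.11.

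**Figure D3:**
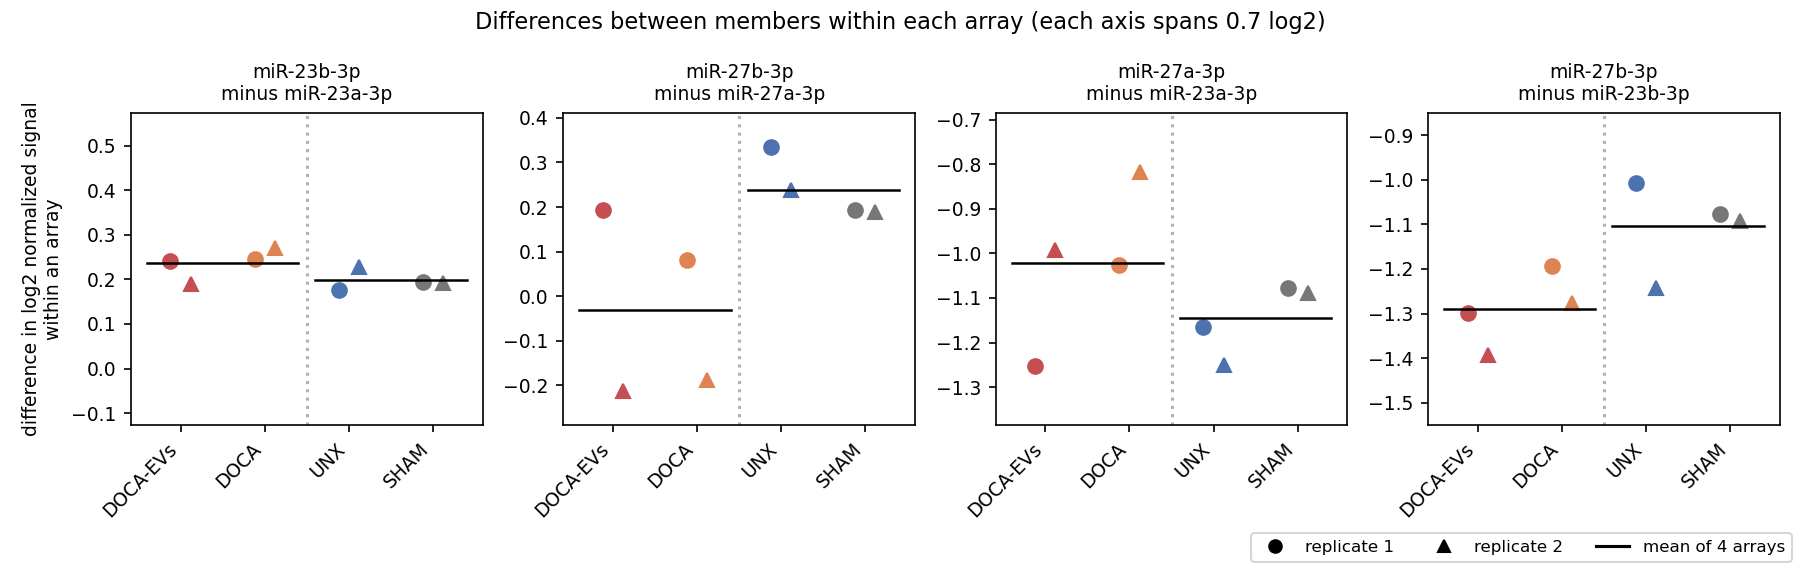
Difference in log2 normalized signal between 2 members within each array, by group from DOCA-EVs to SHAM, with circles for replicate 1, triangles for replicate 2 and lines for the means of the 4 DOCA-salt arrays and the 4 standard-diet arrays. The difference between the miR-27 paralogues ranges from −0.21 to 0.34, whereas that between the miR-23 paralogues stays between 0.18 and 0.27.

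The 6 opposite arms, miR-23a-5p, miR-23b-5p, miR-24-1-5p, miR-24-2-5p, miR-27a-5p and miR-27b-5p, were not above background on any array by the rule that at least 0.5 of a probe's spots be well above it. Of 128 spots per arm over the 8 arrays, 1 spot of miR-24-1-5p was well above background and none of the other 5 arms. The highest probe signal before scaling was 10.5 for miR-24-2-5p, 5.37 for miR-23a-5p and 2.02 for miR-27a-5p, while the standard deviation of the negative controls averaged 2.57. No fold is given for these arms, and since the arms that separate Mir24-1 from Mir24-2 are among them, miR-24-3p could not be divided between its loci. The 3p arms, by contrast, were well above background on 128 of 128 spots each, with no saturated spot.

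Each measured member rested on 2 probes of 8 spots per array. The 2 probes' log2 differences between groups lay within 0.069 of each other in all 25 pairs of member and comparison, with a median gap of 0.031. They had opposite signs in 4 pairs, miR-23a-3p and miR-23b-3p in UNX against SHAM, miR-27a-3p in DOCA-EVs against DOCA, and miR-23a-3p in the 4 against 4 comparison.

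Over the 8 arrays, whatever their group, the highest and lowest levels of miR-27b-3p lay 0.25 log2 apart, which is 1.19-fold. The range was 0.30 for miR-23b-3p, 0.36 for miR-23a-3p, 0.41 for miR-24-3p and 0.46 for miR-27a-3p, or 1.37-fold. The median range of the 192 miRNAs detected on all arrays was 0.69, and 4 of them had a narrower range than miR-27b-3p and 47 than miR-27a-3p. This is a description under 1 scaling: with no scaling between arrays 95 miRNAs had a narrower range than miR-27b-3p, and with normexp and quantile normalization 73 to 137 had a narrower range than the 5 members.

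**Figure D4:**
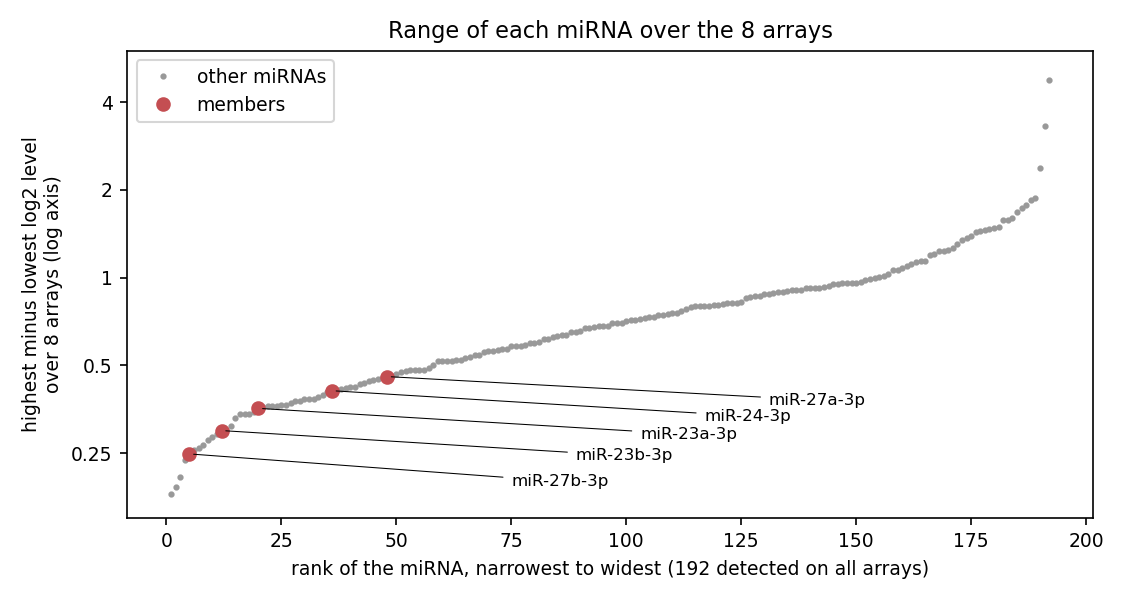
Highest minus lowest log2 level over the 8 arrays for each of the 192 miRNAs detected on all of them, on a log axis, ranked from narrowest to widest, with the 5 measured members in red. The members lie between 0.25 and 0.46, below the median of 0.69.

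Likeness of profile was measured as the root mean square difference of log2 levels over the 8 arrays after subtracting each miRNA's mean, a description in which all points share the arrays and their scaling. The profile nearest to miR-23a-3p was that of miR-23b-3p and the reverse also held, at 0.032 log2, the nearest of 191 others in both directions. The next were miR-29a-3p, at 0.062 from miR-23a-3p, and miR-151-5p, at 0.069 from miR-23b-3p. The miR-27 paralogues, which likewise differ at 1 base, lay 0.19 apart, at rank 66 of 191 counted from miR-27b-3p and rank 56 counted from miR-27a-3p. Within an array, miR-27b-3p minus miR-27a-3p was −0.19 and −0.21 on the weakly hybridised arrays and 0.081 to 0.34 on the other 6. The part of those arrays, and of probes binding both paralogues, in either distance was not tested. miR-27a-3p was nearest to miR-181b-5p (0.072) and then to its cluster mate miR-24-3p (0.072). miR-27b-3p was nearest to miR-185-5p (0.073) and let-7g-5p (0.084), and miR-24-3p to miR-345-5p (0.049) and miR-196b-5p (0.057). The median difference from a member to another miRNA was 0.25 to 0.27.

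Other miRNAs of the same settings were taken from lists, whose values are given for the 4 DOCA-salt against the 4 standard-diet arrays, the comparison with most miRNAs past the threshold (6.61% of all tested). Of 8 miRNAs linked to mineralocorticoid response and sodium transport, 3 were tested and 1 fell, miR-192-5p, which targets the kinase WNK1 in mouse kidney. It lay at 9.41 to 9.77 on the DOCA-salt arrays and 10.03 to 10.31 on the standard-diet arrays, a log2 fold change of −0.61 ± 0.10 (limma adjusted p = 0.024). The list's median was −0.078, beside −0.0072 for all tested miRNAs. Of 12 miRNAs linked to TGF-beta, 10 were tested, 2 rose and 1 fell, with a median of −0.090. The 2 that rose were miR-132-3p, a CREB-regulated miRNA, and the epithelial miR-200c-3p (log2 fold change 0.61 ± 0.12, limma adjusted p = 0.047). miR-132-3p was above background on 2 DOCA-salt arrays and on none of standard diet (1.15-fold over the dimmest miRNA above background, limma adjusted p = 0.0094). miR-200c-3p had levels of 5.40 and 5.46 on the DOCA-EVs arrays, 4.50 and 4.13 on the DOCA arrays, 4.25 and 4.02 on the UNX arrays, and 4.50 and 4.30 on the SHAM arrays. The DOCA-EVs arrays alone lay above the standard-diet arrays, and since it was above background on 3 DOCA-salt arrays and 1 standard-diet array, the size of the fold is uncertain. The 1 that fell was again miR-192-5p. Of 8 vessel wall miRNAs, 7 were tested and 2 rose, with a median of −0.010. They were miR-221-3p, which restrains endothelial migration, and its cluster mate miR-222-3p. miR-221-3p lay at 7.05 to 7.57 on the DOCA-salt arrays and 6.23 to 6.51 on the standard-diet arrays (0.94 ± 0.11, limma adjusted p = 0.0094). miR-222-3p was 1.57-fold over the dimmest miRNA above background (limma adjusted p = 0.012). It was itself above background on 3 DOCA-salt arrays and on no standard-diet array. For miR-132-3p and miR-222-3p the limma p-values thus set signal against background on the standard-diet side. The software called miR-132-3p detected on 4 arrays and miR-222-3p on 5. Their folds average all 4 DOCA-salt arrays, including those not above background, so they are not strict lower bounds. The count of calls depended on single arrays: 16 miRNAs passed with all 8 arrays in the limma fit, none passed without SHAM replicate 1 or without SHAM replicate 2, 4 and 6 without UNX replicate 1 and 2, and 8 without DOCA replicate 2, whereas 26 passed without DOCA-EVs replicate 1.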

How the data were processed

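Cy3-labelled miRNA from 100 ng of total RNA was hybridised to 8 arrays of 1 slide, per the labels' protocols. Per the file headers, the authors used Agilent Feature Extraction 11.5.1.1 with protocol miRNA_1105_Oct12 on design 070154. The deposited intensity is a processed signal per spot, from which the software had subtracted background, with no scaling across arrays. The series table that the authors deposited held identical values (largest difference 0 over 12843 spots). The detection and background calls are the software's flags. Spots with outlier flags were left out, spots were averaged per probe, and each array was divided by its 75th percentile over those 271 probes that all 8 arrays detected. A floor of 2.57 was applied (the negative controls' standard deviation, averaged over arrays), the probes of a miRNA were summed, and log2 was taken. The tests took the 242 of 758 miRNAs that some group detected on both its arrays. The headers name rn4 for the grid, so positions and sequences come from RefSeq's GRCr8 table alone.

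Groups were compared in limma 3.58.1 under R 4.3.3 over all 8 arrays, each group having its own mean (4 degrees of freedom left over), with Benjamini-Hochberg adjustment over 242 miRNAs and a threshold of 0.05. The spread is assumed equal in all groups. Differences within an array were tested by exact two-sided permutation of 4 arrays against 4, since 2 against 2 cannot give a p below 0.333. Precision is limited by how few arrays there are, as the intervals beside the values show. Folds over the dimmest miRNA above background raise each array of a group not above background to that miRNA's level on the array. The other group's mean is taken over all its arrays, above background or not. Deviations from group means correlated between arrays of the same replicate number in 6 of 6 pairs of groups (r from 0.24 to 0.56 across miRNAs, which are not independent). The fit was checked on simulated data.

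Members, lists and tests were chosen with earlier results of these data known. By the rule for naming, every member is described, together with the 2 miRNAs nearest in profile to each measured member and, of each list, the miRNAs past the threshold in the comparison with most. Alternatives were 5 other scalings, 2 other filters, another probe summary, the replicate block, each array left out in turn, and both weakly hybridised arrays left out. The planned normexp setting used the median spot signal, since the files hold no mean signal column, and was chosen after seeing the files.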

Additional observations from a re-analysis of the deposited data

Results flagged for a closer look

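miR-24-2-5p, the arm that marks the Mir24-2 locus of the miR-23a cluster, was called detected by the software on DOCA-EVs replicate 2 alone, where its log2 level was 4.15. This value belongs to a feature outside the tests. On the other 7 arrays the level was 3.37 to 3.91, the highest of them on SHAM replicate 1. Over all 8 arrays, none of the spots of its 4 probes stood well above background, and DOCA-EVs replicate 2 is 1 of the 2 weakly hybridised arrays; the part of either in the detection call was not tested.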

How the results depend on the processing

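No member passed in any of the 5 comparisons under any of the 18 alternatives, replicate block included, and the smallest adjusted p of a member was 0.051 (miR-27b-3p, DOCA-salt against standard diet, normexp and quantile normalization). The 4 differences within an array kept their direction and did not pass in 16 alternatives each. With the replicate block, or without both weakly hybridised arrays, too few regroupings exist for a p under 0.05. Those alternatives could not have passed and say nothing on the test. In the alternatives with 4 arrays against 4, a single difference at the smallest p of 0.029 would have an adjusted p of 0.11. Not passing there is thus weak information. With quantile normalization, with or without normexp, miR-27b-3p minus miR-27a-3p and miR-27b-3p minus miR-23b-3p each had a permutation adjusted p of 0.057. Of 450 member values, 381 kept their direction and 69 changed sign; a scaling moves all miRNAs of an array together, and other causes were not tested. With the percentile over all probes the sign changed in UNX against SHAM (0.26 for miR-24-3p, 0.22 for miR-27a-3p, 0.31 for miR-27b-3p), DOCA against UNX (−0.0023 for miR-24-3p) and DOCA-EVs against UNX (−0.026 for miR-23a-3p, −0.013 for miR-23b-3p). With the median of probes it changed in UNX against SHAM (0.026 for miR-27b-3p), DOCA against UNX (−0.14 for miR-24-3p, −0.072 for miR-27a-3p), DOCA-EVs against DOCA (0.14 for miR-27a-3p), DOCA-EVs against UNX (−0.022 for miR-23a-3p, −0.0085 for miR-23b-3p) and DOCA-salt against standard diet (−0.16 for miR-23a-3p, −0.12 for miR-23b-3p, −0.060 for miR-24-3p, −0.038 for miR-27a-3p). With quantile normalization it changed in UNX against SHAM (−0.019 for miR-23a-3p, −0.079 for miR-23b-3p, 0.054 for miR-27b-3p), DOCA against UNX (0.084 for miR-23b-3p) and DOCA-EVs against DOCA (0.087 for miR-27a-3p). With no scaling it changed in UNX against SHAM (0.27 for miR-24-3p, 0.22 for miR-27a-3p, 0.32 for miR-27b-3p), DOCA against UNX (−0.46 for miR-24-3p, −0.40 for miR-27a-3p), DOCA-EVs against DOCA (0.44 for miR-27a-3p), DOCA-EVs against UNX (−0.041 for miR-23a-3p, −0.028 for miR-23b-3p) and DOCA-salt against standard diet (−0.19 for miR-23a-3p, −0.15 for miR-23b-3p, −0.087 for miR-24-3p, −0.064 for miR-27a-3p); there the median of all miRNAs was −0.50 in DOCA against UNX and 0.44 in DOCA-EVs against DOCA. With normexp and quantile normalization it changed in UNX against SHAM (−0.084 for miR-23b-3p, 0.049 for miR-27b-3p), DOCA against UNX (0.072 for miR-23b-3p) and DOCA-EVs against DOCA (−0.0035 for miR-24-3p, 0.060 for miR-27a-3p). With the mean of log2 probe values it changed in DOCA-EVs against DOCA (0.0027 for miR-27a-3p) and DOCA-salt against standard diet (−0.0041 for miR-23a-3p). Without both weakly hybridised arrays, where the 1 array left in DOCA and in DOCA-EVs is assumed to vary like the other groups, it changed in UNX against SHAM (0.018 for miR-24-3p, 0.066 for miR-27b-3p), DOCA against UNX (−0.020 for miR-27a-3p), DOCA-EVs against DOCA (−0.15 for miR-24-3p), DOCA-EVs against UNX (−0.084 for miR-23a-3p, −0.045 for miR-23b-3p, −0.12 for miR-24-3p, −0.13 for miR-27a-3p) and DOCA-salt against standard diet (−0.094 for miR-23a-3p, −0.049 for miR-23b-3p, −0.038 for miR-24-3p, −0.088 for miR-27a-3p). With each array left out in turn, values that changed sign ran in UNX against SHAM from −0.0037 to 0.049 for miR-23a-3p, −0.022 to 0.084 for miR-23b-3p and −0.073 to 0.056 for miR-27b-3p; in DOCA against UNX from −0.11 to 0.027 for miR-23b-3p; in DOCA-EVs against DOCA from −0.16 to 0.24 for miR-24-3p and −0.23 to 0.23 for miR-27a-3p; in DOCA-EVs against UNX from −0.0013 to 0.20 for miR-23a-3p, −0.038 to 0.36 for miR-24-3p and −0.045 to 0.41 for miR-27a-3p; and in DOCA-salt against standard diet from −0.040 to 0.059 for miR-23a-3p and −0.0054 to 0.085 for miR-23b-3p. The replicate block left every member's fold change as it was and no member past the threshold. With it the 4 differences within an array, which could not pass there, had permutation adjusted p from 0.11 to 0.28. The counts of all miRNAs past the threshold moved more: 0 to 20 in DOCA against UNX (4 with all arrays and the main scaling), 0 to 8 in DOCA-EVs against DOCA (0), 0 to 11 in DOCA-EVs against UNX (6), 0 to 26 in DOCA-salt against standard diet (16), and 0 in UNX against SHAM under every alternative. For DOCA-salt against standard diet it was 7 with the percentile over all probes, 6 with no scaling, 10 for miRNAs detected on all arrays and 3 with no filter. For DOCA against UNX it was 0 with any SHAM, UNX or DOCA array left out and 15 with either DOCA-EVs array left out.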

Other observations

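In RefSeq's table the genes Mir181c and Mir181d neighbour the miR-23a cluster, and Mir3074 overlaps the Mir24-1 hairpin. These neighbours were chosen from the annotation and not by their values. miR-181c-5p had levels of 5.22 and 5.97 on the DOCA-EVs arrays, 5.41 and 5.42 on the DOCA arrays, 5.24 and 5.37 on the UNX arrays, and 5.32 and 5.27 on the SHAM arrays. miR-181d-5p had levels of 5.34 and 5.60 on the DOCA-EVs arrays, 5.35 and 5.35 on the DOCA arrays, 5.36 and 5.13 on the UNX arrays, and 5.36 and 5.30 on the SHAM arrays. Both were highest on DOCA-EVs replicate 2, an array of the weakly hybridised pair. So were miR-23a-3p, miR-27a-3p, miR-24-3p and, from the other cluster, miR-23b-3p. miRNAs of unrelated loci, such as miR-29a-3p and miR-130a-3p, were highest there too, and the share of all tested miRNAs was not counted. Neither neighbour passed the threshold in any of the 5 comparisons with limma. miR-3074 was detected on no array.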
